A study of Mus musculus with 2 samples.

Results

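Polycomb repressive complex 1 (PRC1) is described here through 9 of its genes in mouse embryonic stem cells (mESCs): Ring1, Rnf2, Cbx2, Cbx6, Cbx7, Cbx8, Phc1, Rybp and Kdm2b. They were found by gene symbol in the deposited table of PB against PB-TERRA mESCs, and all 9 were among its 18888 genes. The cells were 46C mESCs grown on gelatin at passages 21-24. PB mESCs carried the empty PiggyBac vector and PB-TERRA mESCs carried the same vector with telomeric repeats, from which polyadenylated TERRA, the telomeric noncoding RNA, is expressed. Total RNA gave 1 library per condition, so no spread between cultures can be estimated, no test is given, and each comparison is between these 2 libraries. Whether a line was a clone or a pool, and which promoter drives the repeats, are not given in the sources used here.

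PRC1 is an E3 ligase of chromatin. Its catalytic RING protein, RING1 or RNF2 (RING1B), pairs with a PCGF protein and places a single ubiquitin on histone H2A, a mark of silenced developmental genes in mESCs. Canonical PRC1 holds a CBX protein, which reads the methyl mark that PRC2 places on histone H3, and a PHC protein, which can polymerise. Variant PRC1 holds RYBP or YAF2 in place of CBX and PHC, and 1 of the variant forms, PRC1.1, is brought to unmethylated CG sites by the zinc finger of KDM2B.

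The paralogues of PRC1 resemble each other, so whether their reads could be mixed up was checked first on GENCODE M21 transcripts (GRCm38). No stretch of 50 bases of any member occurred in a paralogue of its family (0 stretches). The longest exact run that the coding sequences of a pair share is printed in capitals for 4 pairs, with up to 15 bases on each side, because it shows how short these runs are. Ring1 and Rnf2 share 14 bases, in exon 6 of Ring1 (chr17:34021714-34021727, minus strand) and exon 6 of Rnf2 (chr1:151471669-151471682, minus strand). Cbx6 and Cbx7 share 15 bases within the chromodomain, in exon 3 of Cbx6 (chr15:79833743-79833757, minus strand) and exon 3 of Cbx7 (chr15:79923513-79923527, minus strand). Phc1 and Phc2 share 17 bases, in exon 9 of Phc1 (chr6:122321936-122321952, minus strand) and exon 10 of Phc2 (chr4:128743476-128743492, plus strand). Rybp and Yaf2 share 23 bases, in exon 5 of Rybp (chr6:100232336-100232358, minus strand) and exon 4 of Yaf2 (chr15:93285533-93285555, minus strand).
Ring1: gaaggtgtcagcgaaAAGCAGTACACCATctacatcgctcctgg
Rnf2: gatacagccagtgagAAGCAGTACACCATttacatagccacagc
Cbx6: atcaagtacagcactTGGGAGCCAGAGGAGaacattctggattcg
Cbx7: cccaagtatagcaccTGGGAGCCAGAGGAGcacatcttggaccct
Phc1: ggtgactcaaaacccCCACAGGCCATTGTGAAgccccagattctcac
Phc2: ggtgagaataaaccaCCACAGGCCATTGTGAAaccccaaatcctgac
Rybp: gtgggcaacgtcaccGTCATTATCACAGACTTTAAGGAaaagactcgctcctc
Yaf2: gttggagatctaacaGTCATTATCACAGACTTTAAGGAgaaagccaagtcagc

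Other genes did share stretches with some members. A pseudogene, Rybp-ps, held 8.93% of the 50-base stretches of Rybp, and its own level is not analysed here. For Kdm2b the share was 12.5%, partly in exons of Rnf34, which runs on the opposite strand and overlaps 5.77% of the exonic bases of Kdm2b. Npcd lies on the strand of Cbx6 and overlaps 5.31% of its exonic bases. Trmt1l, on the opposite strand, overlaps 3.83% of those of Rnf2, and Apobec3, also on the opposite strand, overlaps 1.54% of those of Cbx7. The TruSeq v2 kit does not mark strand, so reads from bases shared with a gene on the opposite strand cannot be told apart, and how reads that match several genes were counted is not given in the sources used here. Ring1, Cbx2, Cbx8 and Phc1 had 0 shared stretches.

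The expression values are read as FPKM, fragments per kilobase of gene scaled to the number of mapped fragments, which allows levels of different genes to be set beside each other. The steps between low FPKM values of short genes gave a depth of 24680000 mapped fragments for PB and 24820000 for PB-TERRA. Reads of each gene were estimated from this depth. The 95% intervals below are exact, Poisson for a level and binomial (Clopper-Pearson) for a ratio, and they cover counting error only. The markers of the labelled cell type were present, with Pou5f1 at 744.67 (PB) and 773.31 FPKM (PB-TERRA), and all 9 mESC markers past the filter.

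The levels of the members spanned more than 2 orders of magnitude, and their order was nearly the same in both libraries. Phc1, a polyhomeotic subunit of canonical PRC1, was the highest at 129.69 (PB) and 128.65 FPKM (PB-TERRA). Rybp, the subunit that defines variant PRC1, came next with 59.41 and 67.84 FPKM. Cbx7, the leading CBX reader in mESCs, had 51.94 and 49.17 FPKM. These 3 genes and Rnf2 lay above 90% of all genes in the table in each library. Rnf2, the main E3 ligase, had 47.74 and 50.95 FPKM, so that it stood below Cbx7 in PB and above it in PB-TERRA. In PB the intervals of Rnf2 (46.2 to 49.4 FPKM) and Cbx7 (50.3 to 53.6) did not overlap, whereas in PB-TERRA those of Rnf2 (49.3 to 52.6) and Cbx7 (47.6 to 50.8) did.

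The remaining members were lower. Kdm2b, the CG-binding subunit of PRC1.1, had 29.01 (PB) and 32.65 FPKM (PB-TERRA). Cbx6 had 19.15 and 19.76 FPKM, and Cbx2, a CBX protein that can compact chromatin, had 12.93 and 13.39. The intervals of these 3 neighbours were apart in each library. Ring1, the second catalytic subunit, had 3.42 and 3.53 FPKM, close to the middle of all genes in the table (49.0% of genes lay below it in PB). Cbx8 was the lowest, with 0.47 and 0.65 FPKM from 15 and 21 estimated reads. The table gives Cbx8 a length of 1413 bases, while its longest coding transcript in GENCODE M21 has 3580, so its FPKM depends on the gene model used.

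**Figure D1:**
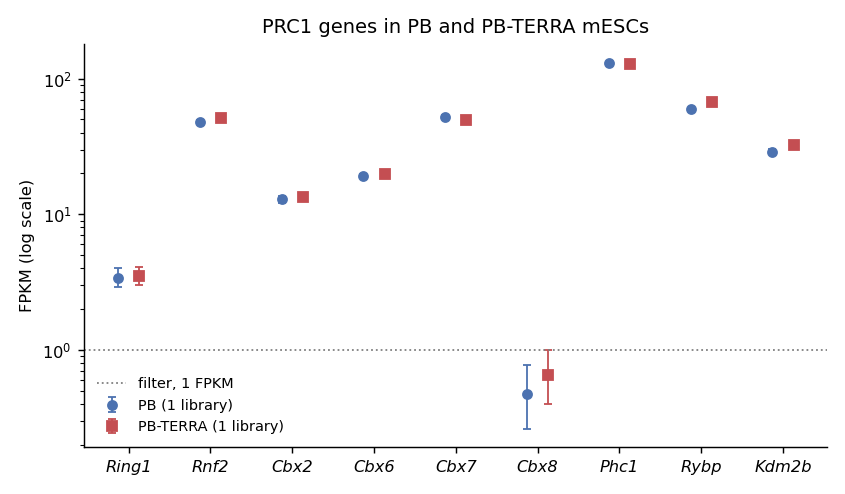
Level of each of the 9 PRC1 genes in FPKM (log scale) in the PB library (blue circles) and the PB-TERRA library (red squares); bars are exact 95% Poisson intervals of the estimated reads and the dotted line is the filter of 1 FPKM. Phc1 is the highest member in both libraries and Cbx8 lies below the filter in both.

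The comparison asked whether overexpressed TERRA goes with other levels of PRC1 genes. The differences were small. Rybp was 14.2% and Kdm2b 12.5% higher in PB-TERRA, Rnf2 was 6.72% higher, Cbx7 was lower, and the remaining members did not differ beyond their counting intervals. With the log2 ratio of FPKM + 0.1 (PB-TERRA over PB) and a filter of at least 1 FPKM in at least 1 library, 8 of the 9 members passed, all of them in both libraries, and Cbx8 did not. A 2-fold difference (log2 ratio of 1 or more, up or down) was reached by 0 members, and in the same comparison by 0.913% of the 12263 genes that passed the filter. At a threshold of 0.5 the count was also 0, beside 4.67% of all genes. Of the 8 members, 6 were higher and 2 lower, with a median log2 ratio of 0.048. With both columns rescaled to the same sum, 7 were higher and 1 lower (median 0.085). Over all genes past the filter 48.6% were higher, 50.9% were lower and the median was -0.0044. The middle 50% of genes ran from -0.11 to 0.10, a range that held all members past the filter except Rybp and Kdm2b.

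The interval of the ratio of reads lay above 0 for 3 members (Rnf2, Rybp and Kdm2b), as it did for 18.1% of all genes past the filter. It lay below 0 for 1 member (Cbx7), as it did for 17.6% of all genes, and it included 0 for the other 4. With both columns rescaled to the same sum, a shift of 0.038 on the log2 scale before the pseudocount, Cbx7 was -0.041 and its interval included 0, while Cbx6 was 0.083 and its interval lay above 0. Such an interval narrows with depth, and 7 of the 8 members were above 11.03 FPKM, the median of all genes past the filter in PB. With 1 library per condition, TERRA and any other difference between the cultures cannot be told apart.

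**Figure D2:**
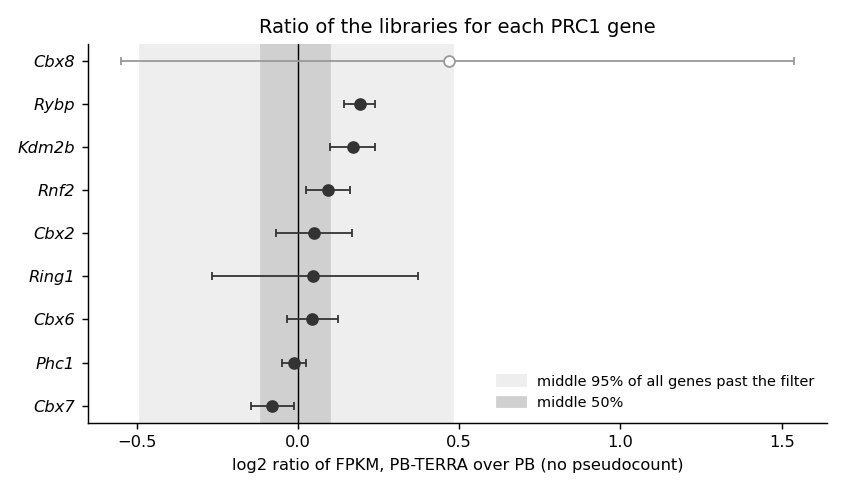
Log2 ratio of FPKM (no pseudocount), PB-TERRA over PB, for each member, with exact 95% binomial intervals of the estimated reads; the open symbol is Cbx8, which did not pass the filter. The intervals of Rybp, Kdm2b and Rnf2 lie above 0 and that of Cbx7 below 0, and every member's point lies inside the middle 95% of all genes past the filter (light band, -0.49 to 0.48); the dark band is the middle 50%.

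Both catalytic subunits were slightly higher in PB-TERRA. Rnf2 had 3435 (PB) and 3686 estimated reads (PB-TERRA) (log2 ratio 0.094, interval 0.026 to 0.16). Ring1 had 163 and 170 reads (log2 ratio 0.044, interval -0.27 to 0.37), a difference not detectable at this depth. Rnf2 was thus 14.0 times as high as Ring1 in PB and 14.4 times in PB-TERRA. It made up 93.3% of the summed FPKM of the pair in PB and 93.5% in PB-TERRA, so nearly all transcripts of the catalytic pair came from Rnf2 in either library. Trmt1l, which overlaps Rnf2 on the opposite strand, was at 15.26 (PB) and 14.25 FPKM (PB-TERRA) (interval of the ratio -0.23 to 0.033), and its part in the value of Rnf2 was not tested.

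Of the CBX readers of canonical PRC1 only Cbx7 was separated from 0 by its interval, and it was lower in PB-TERRA. Cbx7 had 3828 (PB) and 3644 estimated reads (PB-TERRA) (log2 ratio -0.079, interval -0.15 to -0.013). Apobec3, the neighbour whose exons overlap it, was also lower in PB-TERRA, at 39.36 FPKM against 45.63 in PB, and its part in the value of Cbx7 was not tested. Cbx6 had 2522 and 2617 reads (log2 ratio 0.045, interval -0.034 to 0.12) and Cbx2 1167 and 1215 (log2 ratio 0.050, interval -0.067 to 0.17). Neither was separated from 0 by its interval. With both columns rescaled to the same sum, the interval of Cbx7 included 0 and that of Cbx6 lay above 0. Cbx8 had a log2 ratio of 0.40, and 0.47 without the pseudocount, with an interval from -0.55 to 1.54 on the reads, so no difference was detectable at this depth.

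As a share of the summed FPKM of the 4 CBX members, Cbx7 had 61.5% in PB and 59.3% in PB-TERRA, a difference (PB-TERRA minus PB) of -2.21 percentage points. Cbx6 had 22.7% and 23.8%, Cbx2 had 15.3% and 16.1%, and Cbx8 stayed under 1% in both libraries. The order Cbx7, Cbx6, Cbx2 was the same in both. The sum over these members was 84.49 FPKM in PB and 82.97 in PB-TERRA.

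Phc1 had 12025 (PB) and 11996 estimated reads (PB-TERRA), the most of all members. Its log2 ratio was -0.012 (interval -0.048 to 0.025), the narrowest interval of the members. With both columns rescaled to the same sum it was 0.026, that is, its direction depends on the scaling. Phc1 made up 85.2% of the polyhomeotic FPKM in PB and 85.1% in PB-TERRA. Phc2 had 19.78 and 19.18 FPKM, and Phc3 held 1.81% and 2.18%. Phc3 itself was 2.76 (PB) and 3.29 FPKM (PB-TERRA) (log2 ratio 0.25, interval 0.11 to 0.40).

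**Figure D3:**
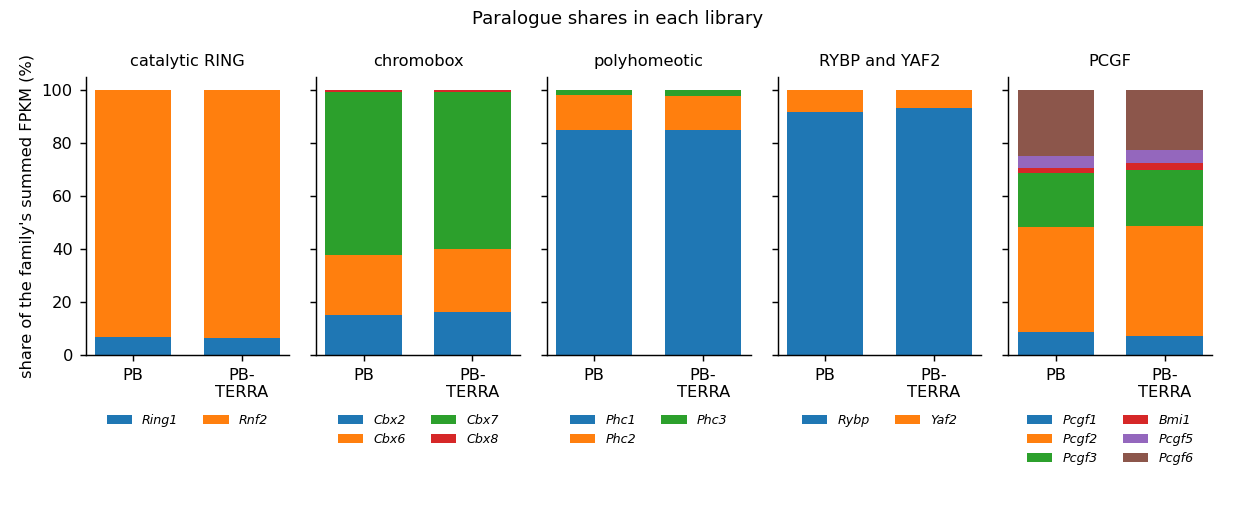
Share of each paralogue in the summed FPKM of its family (percent; for CBX, of the 4 members), 1 stacked bar for the PB library and 1 for the PB-TERRA library in each of 5 PRC1 families. Rnf2, Cbx7, Phc1 and Rybp hold the largest share of their family in both libraries, and the widest difference is that of Cbx7, at -2.21 percentage points.

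The members of variant PRC1 had the 2 highest log2 ratios among the members past the filter. Rybp had 6251 (PB) and 7178 estimated reads (PB-TERRA) (log2 ratio 0.19, interval 0.14 to 0.24). Its paralogue Yaf2 was lower, with 279 and 252 reads (log2 ratio -0.15), but its interval from -0.41 to 0.096 included 0. Rybp made up 91.9% of the FPKM of the pair in PB and 93.5% in PB-TERRA.

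Kdm2b had 3117 (PB) and 3528 estimated reads (PB-TERRA) (log2 ratio 0.17, interval 0.10 to 0.24). The long form of Kdm2b encodes a JmjC demethylase domain that the short form lacks. The table has 1 value per gene, so the forms cannot be told apart. Rnf34, which overlaps Kdm2b on the opposite strand, was 31.68 (PB) and 32.39 FPKM (PB-TERRA), and its part in the value of Kdm2b was not tested.

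The log2 ratio of all genes was higher in longer genes, from a median of -0.059 in the decile of the shortest genes to 0.047 in that of the longest. The members were long, with a median of 3820 bases past the filter against 2801 for all genes. After subtraction of the median of similarly long genes, Cbx6 was 0.0035 instead of 0.045, Kdm2b 0.13 instead of 0.17, Rybp 0.19 as before and Rnf2 0.10. The median of the members was 0.049 with this correction.

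Promoters were compared as a feature of the members that expression did not define. RefSeq windows from 250 bases before to 50 after a start (GRCm38.p6) matched 7 members with 10 windows. Rybp and Cbx2 had none. The letters CG, which read the same on both strands, occurred 18 to 49 times in the windows of every matched member except Phc1, which had 9. Over all 32851 windows the median was 7, and 29.7% had at least 18. Phc1 and Ring1 are shown because they have the fewest and the most CG (9 and 37) among the members with 1 window. The counts did not follow the order of FPKM: Cbx8, the lowest member, had 24, and Kdm2b had up to 49. At least 37 CG were found in 5.58% of all windows, and at least 9 in 45.8%. The 250 bases before the start are printed with CG in capitals, Phc1 from chr6:122340228-122340477 and Ring1 from chr17:34024681-34024930, both on the minus strand. They hold 8 and 30 CG.
Phc1: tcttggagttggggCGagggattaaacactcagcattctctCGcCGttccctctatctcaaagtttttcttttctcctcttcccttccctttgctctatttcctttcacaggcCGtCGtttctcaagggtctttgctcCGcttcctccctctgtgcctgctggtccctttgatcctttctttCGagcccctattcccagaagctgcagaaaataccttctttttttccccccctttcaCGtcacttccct
Ring1: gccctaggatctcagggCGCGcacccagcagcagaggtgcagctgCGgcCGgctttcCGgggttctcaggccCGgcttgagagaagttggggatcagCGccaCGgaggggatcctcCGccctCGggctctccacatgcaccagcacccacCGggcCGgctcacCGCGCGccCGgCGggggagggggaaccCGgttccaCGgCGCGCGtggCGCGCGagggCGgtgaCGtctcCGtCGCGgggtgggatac

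The rest of PRC1 was described with 31 further subunits and partners, all in the table and past the filter. In PB-TERRA 19 were higher and 12 lower, with a median log2 ratio of 0.042, or 0.024 after subtraction of the median of similarly long genes, and 0 differed 2-fold or more, beside 0.913% of all genes. With both columns rescaled to the same sum, 21 were higher and 10 lower (median 0.080). Without this rescaling the interval lay above 0 for 11 and below 0 for 3, beside 18.1% and 17.6% of all genes. With it, the intervals of Max, Dcaf7, Csnk2a2, Hdac2 and Tfdp1 also lay above 0, and those of Bcorl1 and Auts2 included 0. The widest difference was in Bmi1 (PCGF4), a partner of the RING proteins in canonical PRC1, with 226 (PB) and 321 estimated reads (PB-TERRA) (log2 ratio 0.48, interval 0.25 to 0.75). Of the 50-base stretches of Bmi1, 16.7% also occur in other genes, mainly in the gene model Gm5946. Phc3 (0.25) and Cbx3 (0.19), the HP1 gamma protein found in PRC1.6, followed. The lowest were Auts2 (-0.19), Bcorl1 (-0.18) and Yaf2 (-0.15).

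The PCGF proteins give each PRC1 form its name. Pcgf2, the main PCGF of canonical PRC1 in these libraries, had 51.26 (PB) and 56.73 FPKM (PB-TERRA) (log2 ratio 0.15, interval 0.075 to 0.22). Pcgf6, of PRC1.6, had 31.86 and 31.12 FPKM, and Pcgf3 had 26.03 and 29.11. Pcgf1 of PRC1.1 had 11.03 and 10.11 FPKM (log2 ratio -0.12, interval -0.41 to 0.16). Within the family Pcgf2 made up 39.9% in PB and 41.4% in PB-TERRA, Pcgf6 24.8% and 22.7%, Bmi1 2.05% and 2.71%, and Pcgf5 4.39% and 4.62%.

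By assembly, counts are read beside the 48.6% of all genes that were higher, the 50.9% that were lower, the 18.1% with an interval above 0 and the 17.6% with an interval below 0. Of 5 partners of Kdm2b in PRC1.1 4 had a lower value in PB-TERRA, with a median log2 ratio of -0.11, and -0.064 after subtraction of the median of similarly long genes. The interval lay below 0 for 2 of them and included 0 for Pcgf1 and Bcor. Among them Skp1a, an adaptor of ubiquitin ligases, had 211.76 (PB) and 196.67 FPKM (PB-TERRA) (interval -0.16 to -0.058), but genes of its length had a median log2 ratio of -0.085. After subtraction of that median the interval of Skp1a included 0. The corepressor Bcorl1 had 4.37 and 3.84 (interval -0.34 to -0.035), and its interval included 0 with both columns rescaled to the same sum. The deubiquitinase Usp7 was the higher 1 of the 5 (log2 ratio 0.042, interval 0.0098 to 0.073), and genes of its length had a median of 0.042. In PRC1.3 and PRC1.5, 7 of 9 genes were higher (median 0.063, length-corrected 0.044), with 3 intervals above 0 and 1 below. In PRC1.6, 7 of 10 were higher (median 0.063, length-corrected 0.077), with 4 intervals above 0 and 0 below. Mga, the scaffold of PRC1.6, was among those 4, with 18.82 (PB) and 20.96 FPKM (PB-TERRA). The lower genes were Pcgf6 (-0.034), E2f6 (-0.028) and L3mbtl2 (-0.049), and each of their intervals included 0. Of the other canonical genes past the filter 4 of 6 were higher (median 0.086, length-corrected 0.094), with 3 intervals above 0 and 0 below. A difference between assemblies was not tested.

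**Figure D4:**
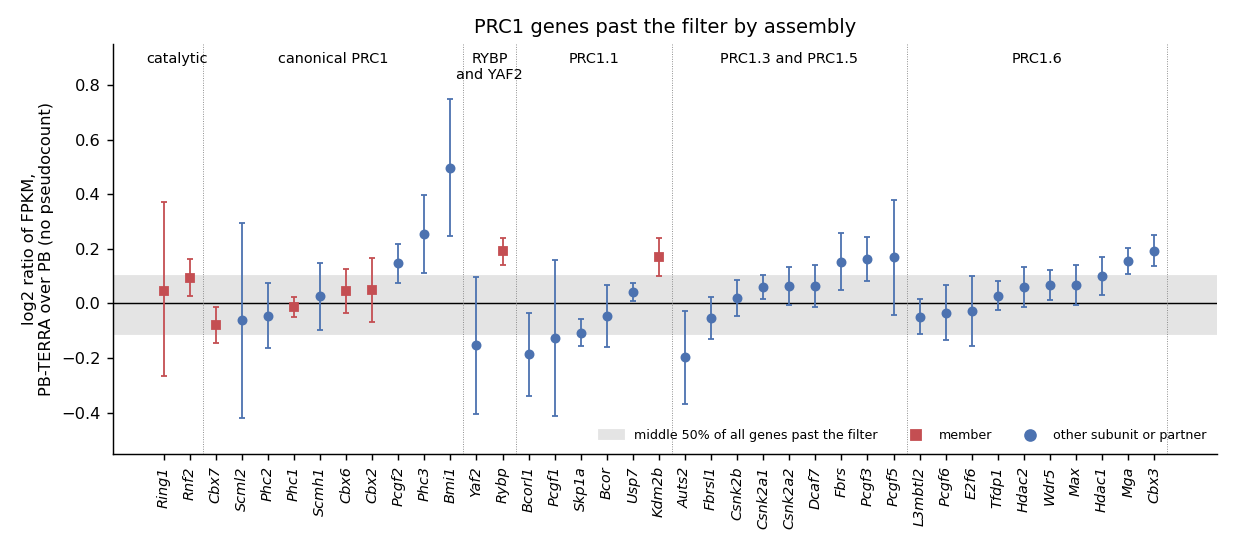
Log2 ratio of FPKM (no pseudocount), PB-TERRA over PB, of the 39 PRC1 genes past the filter, ordered by assembly, with exact 95% binomial intervals of the reads; red squares are members and blue circles other subunits or partners, and the grey band is the middle 50% of all genes. Kdm2b stands above the other PRC1.1 genes, 4 of which are below 0, and Bmi1 has the highest ratio.

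PRC2, which writes the histone H3 mark that CBX proteins read, had 10 of 12 listed genes higher and 2 lower in PB-TERRA. The shares over all genes were 48.6% and 50.9%. The median log2 ratio of PRC2 was 0.087, or 0.072 after subtraction of the median of similarly long genes. The 10 with a mean of at least 5 FPKM were all higher (median 0.14). The interval lay above 0 for 8 of them, beside 18.1% of all genes. Such an interval narrows with depth, and these 8 had from 1983 (Aebp2) to 17733 (Jarid2) estimated reads in PB. Suz12 (0.24), Eed (0.22) and Aebp2 (0.22) were the highest and Phf19 (-0.17), Phf1 (-0.16) and Rbbp7 (0.011) the lowest, and 0 reached a log2 ratio of 1. Of the enzymes that remove ubiquitin from histone H2A and the proteins that read it, 11 of 12 passed the filter, 9 higher and 2 lower (median 0.11), beside 48.6% and 50.9% of all genes. The median of this list was 0.082 after subtraction of the median of similarly long genes. The interval lay above 0 for 5 and below 0 for 2, beside 18.1% and 17.6% of all genes. It included 0 for 4, Usp3 among them. With both columns rescaled to the same sum, the interval of Asxl1 included 0, and those of Bap1, Usp3 and Usp46 lay above 0. Mysm1 (0.17), Asxl2 (0.16) and Usp3 (0.15) were the highest, Usp21 (-0.20), Asxl1 (-0.077) and Usp16 (0.024) the lowest. Bap1, the catalytic partner of the ASXL proteins, had 43.73 (PB) and 44.83 FPKM (PB-TERRA).

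Developmental genes that Polycomb complexes are known to hold silent in mESCs were low in both libraries. Of 52 listed genes 13 passed the filter, each of them in both libraries, and the other 39 stayed under 1 FPKM. Of the 13, 11 were higher and 2 lower in PB-TERRA, beside 48.6% and 50.9% of all genes past the filter. Their median log2 ratio was 0.36. With 1 FPKM added the median was 0.22, and with a mean of at least 5 FPKM only Eomes and T remained, both lower (median -0.20). The log2 ratio was at least 0.5 for 5 of them, beside 4.67% of all genes in either direction, and at least 1 for 0. Hand1, a regulator of trophoblast and heart, had 60 (PB) and 117 estimated reads (PB-TERRA) (log2 ratio 0.91, interval on the reads 0.49 to 1.43). Gata6, of the primitive endoderm, had 94 and 176 reads (0.84, interval 0.53 to 1.27), and Cdx2, of the trophectoderm, had 60 and 107 (0.79, interval 0.36 to 1.31). The lowest were Eomes (-0.27), T (-0.12) and Cdkn2a (0.021), the locus of a cell cycle inhibitor that PRC1 is known to repress, with 2.64 (PB) and 2.68 FPKM (PB-TERRA). Without the filter 38 of the 52 genes were higher, 12 lower and 2 equal (median 0.22), beside 47.6% of all 18888 genes higher.

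Markers of other cells went in different directions. Their counts are read beside the 48.6% of all genes past the filter that were higher and the 50.9% that were lower. The list of 7 primitive endoderm markers, which shares Gata4, Gata6, Sox7, Sox17 and Foxa2 with the Polycomb targets, summed to 10.5 (PB) and 14.65 FPKM (PB-TERRA). All 5 of its genes past the filter were higher, but Pdgfra (0.51 FPKM in PB) passed only through PB-TERRA, where it was high. The genes had log2 ratios of 0.85 for Pdgfra, 0.84 for Gata6, 0.41 for Sox7, 0.33 for Dab2 and 0.30 for Gata4. In this list 0 markers were at the floor of 0.01 FPKM, and without the shared genes the median of the Polycomb targets was 0.26. Of 8 fibroblast markers 3 passed the filter, Col1a2 only through PB-TERRA, where it was high, and the list summed to 19.29 and 23.15 FPKM with 0 at the floor. Col1a1, a collagen, had 7.99 and 12.14 FPKM and Col1a2 had 0.92 and 1.37, while Thy1 had 9.16 and 8.39. Without the filter 4 fibroblast markers were higher and 4 lower, beside 47.6% of all genes higher. Of 5 early neural markers 3 passed, 1 higher and 2 lower, and the list summed to 86.74 and 74.64 FPKM, also with 0 at the floor. Sox1 had a log2 ratio of 0.52, Tubb3 of -0.16 and Nes of -0.38. Of the 9 mESC markers 4 were higher and 5 lower (median -0.012, or 0.039 after subtraction of the median of similarly long genes). The list summed to 3295.98 and 3149.01 FPKM. Dppa5a, a short gene of 647 bases, had the widest difference, at 1162.5 (PB) and 1039.92 FPKM (PB-TERRA). The interval lay above 0 for 3 of the mESC markers, Esrrb (0.14), Sox2 (0.11) and Pou5f1 (0.054), beside 18.1% of all genes. It lay below 0 for 4, Tdgf1 (-0.18), Dppa5a (-0.16), Utf1 (-0.11) and Nanog (-0.10), beside 17.6% of all genes. The part of these cells in the Polycomb target values was not tested, and in bulk RNA more cells of a type and more RNA per cell cannot be told apart.

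**Figure D5:**
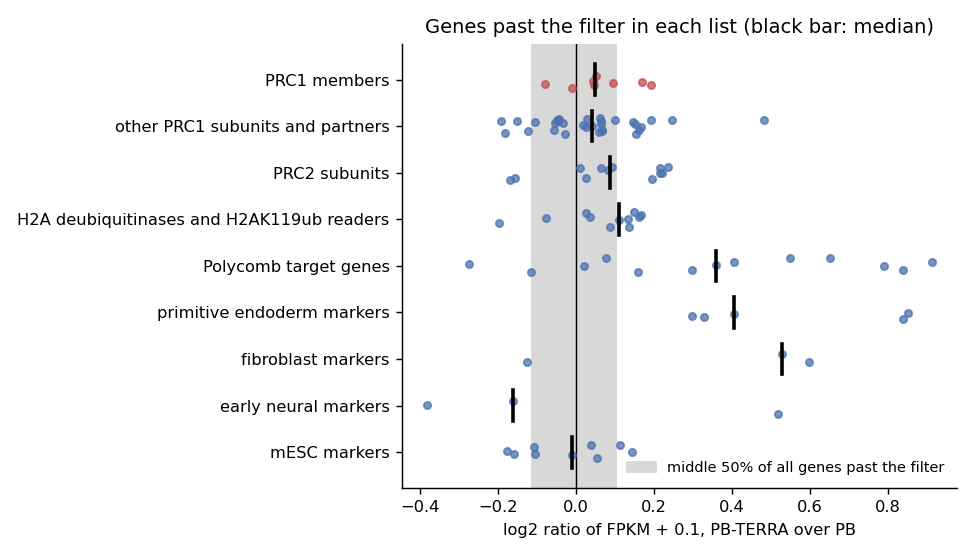
Log2 ratio of FPKM + 0.1, PB-TERRA over PB, of each gene past the filter, by list; each point is 1 gene, black bars are medians and the grey band is the middle 50% of all genes past the filter. The PRC1 members (red, median 0.048) and the other PRC1 genes (median 0.042) lie close to 0, and the Polycomb target genes (median 0.36) and primitive endoderm markers (median 0.41, with Pdgfra past the filter only in PB-TERRA) lie above it.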

How the data were processed

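The RNA-seq libraries were 1 of PB and 1 of PB-TERRA mESCs. The authors deposited FPKM values for 18888 genes, rounded to 2 decimals with a floor of 0.01. The header names no unit, and FPKM is the reading from the values. The submitters' processing notes name HISAT, Cufflinks and mm9. The annotation is not given in the sources used here. The table's own fold changes, p-values and adjusted p-values come from the authors' PossionDis comparison and were not used.

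Depth was found from FPKM values under 3 in genes up to 1200 bases, as the number of mapped fragments for which these values are closest to whole reads. The fit took 113 bases off each gene length. Within 0.15 of a whole read were 82.2% of 1027 values in PB and 85.5% of 1059 in PB-TERRA. Reads are therefore estimates. Ratios are log2 of FPKM + 0.1, which understates changes of low genes. Median, sum, length (50 bins), pseudocount and filter alternatives were run.

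The members and lists were chosen with earlier results of these data known, and the grouping of PRC1 partners by assembly was made after their values were seen. Named genes are the 9 members, all paralogues in the shares, and the 3 highest and 3 lowest ratios of each list; others were named after their values were seen. The CBX shares were computed over the 4 members, and 1 further gene is not reported here. The computations were tested on simulated data. Computation used scipy 1.17.1, pandas 2.3.3 and numpy 2.4.6 under Python 3.11.15, and plots used matplotlib 3.10.9.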

Additional observations from a re-analysis of the deposited data

How the results depend on the processing

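Of 40 log2 ratios of single members recomputed with another pseudocount, scaling or length correction, 39 stayed within their counting interval. Cbx8, which did not pass the filter, was not among them. Filters cannot change the ratio of a single gene, and the estimated reads were made from the FPKM, so neither is counted. Phc1 was the exception, at 0.026 with both columns rescaled to the same sum, the only member that changed sign. The number of members with a log2 ratio of at least 1 was 0 under every alternative run, and at a threshold of 0.5 as well. Of 36 recomputed list medians, 1 changed sign: with a mean of at least 5 FPKM only 2 Polycomb target genes remained, Eomes and T, with a median of -0.20. The median of the Polycomb targets was 0.22 with no filter and 0.22 with 1 FPKM added. The median of the other PRC1 genes was 0.080 with both columns rescaled to the same sum, against 0.042, and 0.024 with the length correction. That of PRC2 was 0.14 with a mean of at least 5 FPKM. The median of the members ranged from 0.045 with 1 FPKM added to 0.085 with the same sum. Shares of paralogues recomputed from the estimated reads over the table's gene length say nothing of their stability. Other gene lengths were not tried, and the table's length differs from that of the longest coding transcript for Pcgf3 (3731 against 7708 bases), Pcgf5 (2663 against 6443), Phc2 (2554 against 3949) and Cbx8. No paired analysis was possible because each condition has 1 library, and no library could be left out for the same reason. Without the primitive endoderm markers, an alternative added after seeing the data, the Polycomb target median was 0.26. Depth limits what can be said of Cbx8 and Ring1.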

Other observations

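Chromobox and KDM2 genes outside the Polycomb families were looked at after their values were seen. The HP1 genes bind methylated lysine 9 of histone H3 rather than the Polycomb mark. Cbx5 (HP1 alpha) had 49.15 (PB) and 55.47 FPKM (PB-TERRA) (log2 ratio 0.17, interval 0.14 to 0.21). Cbx1 (HP1 beta) had 76.37 and 78.43 FPKM (log2 ratio 0.038, interval -0.026 to 0.10), so its interval included 0. Kdm2a, the paralogue of Kdm2b, which also binds unmethylated CG, had 26.05 and 26.92 FPKM (log2 ratio 0.047, interval -0.015 to 0.11), where Kdm2b had 29.01 and 32.65. Whether Kdm2a and Kdm2b differ in their ratio was not tested.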
